A study of Homo sapiens with 4 samples.

Results

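This account covers 42 genes that drive mitosis: the G2/M cyclins and their kinase, the mitotic kinases, the spindle checkpoint, the centromere and kinetochore, the spindle motors and the cytokinesis machinery. They were taken by name from the gene symbol of each count table, and all 42 were found, out of 62696 genes listed. RNA of NT2 cells, a human embryonal carcinoma line also called NTERA-2, was sequenced from 1 library of wild-type cells carrying an empty vector and from 3 libraries labelled HYDIN2 knockdown, replicates 1 to 3, to compare a HYDIN2 knockdown with the vector. HYDIN2 arose by duplication of part of HYDIN, whose product belongs to motile cilia. The labels do not say how the knockdown was made or whether the replicates were separate cultures, so the spread between them may be technical. In the deposited tables the count columns are headed as a LacZ control and as GKAP_KIF27 sets 1, 2 and 3, which are not the sample names.

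Mitosis begins when CDK1 bound to cyclin B is switched on, helped by PLK1, by Aurora A and by the phosphatase CDC25C. Chromosomes then attach to spindle microtubules through kinetochores, and the spindle checkpoint holds back the anaphase-promoting complex until every chromosome is attached. Once CDC20 activates that complex, securin and cyclin B are destroyed, separase opens the cohesin rings, and the central spindle and a contractile ring divide the cell. Most of these genes are transcribed late in the cell cycle under the DREAM and B-MYB/FOXM1 complexes, which act at CHR elements near the start sites. CCAAT boxes are a separate element of many such promoters. In a bulk library, fewer cells in G2 and M and less RNA per such cell cannot be told apart.

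The library totals ran from 25181737 counts in the vector library to 62904698 in labelled replicate 1. Levels are CPM, a count divided by the scaled library total on the usual scale of that unit. Differences are log2 CPM of a labelled knockdown library minus the vector library. HYDIN2 itself counted 12 in the vector library and 150, 112 and 11 counts in labelled replicates 1, 2 and 3. In CPM it had 0.50 against 2.41, 1.88 and 0.35, above the vector in replicates 1 and 2. These low counts do not bear out the labels, and every direction below is that of libraries labelled knockdown. Replicates 1 and 2 were close to each other, with 48 of 15880 genes at least 2-fold apart, while replicate 3 was at least 2-fold from replicate 1 in 3423 genes. Of 12 embryonal carcinoma markers 11 passed the expression minimum, with a summed level of 8995 CPM in the vector library and 8168 to 9981 CPM in the others, and ZFP42 was near 0. That sum hides members that went apart: DNMT3B had 794.7 CPM against 339.8, 350.4 and 349.4 CPM, L1TD1 had 472 CPM against 241, 239 and 227 CPM, and PODXL had 1838 CPM against 2566, 2461 and 3866 CPM. The median difference of these markers was 0.10, 0.10 and -0.63 in replicates 1, 2 and 3. Of 13 neural markers 10 passed, with a sum of 197 CPM against 339.6 to 387 CPM, and PAX6 and NEUROG2 were at 0 counts in the vector library. PAX6 had 957, 784 and 92 counts in labelled replicates 1, 2 and 3. The median difference of the 10 neural markers was 1.53, 1.42 and 0.62 in replicates 1, 2 and 3. At 2-fold in all 3 libraries, 3 of the 10 were higher (3.65% of all genes) and 0 were lower (2.72% of all genes). Of 12 mesenchymal markers 11 passed, with sums of 1087 CPM against 892 to 1211 CPM, and DCN was near 0. VIM, at 536 CPM against 483, 493 and 381 CPM, made up much of that sum, and other members went apart. PDGFRB had 34.1 CPM against 94.55, 86.6 and 73.6 CPM, and FBN1 had 16.6 CPM against 42.6, 40.8 and 55.5 CPM. COL3A1 had 4.04 CPM against 0.74, 0.57 and 6.21 CPM. The part that these shifts have in the differences below was not tested.

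Of the 42 genes, 9 stood 1.5-fold or more to one side of the vector library in all 3 labelled libraries. Cyclin B1, securin (PTTG1), UBE2C, SPC25, Aurora B (AURKB) and survivin (BIRC5) were lower, and the very long transcripts of CENPF, KNL1 and ASPM were higher. A mean CPM of at least 1 was passed by 41 of the 42 genes, all but NUSAP1. Against those 41, the 6 lower genes compare with a background of 9.61% of all 15880 genes tested, and the 3 higher genes with a background of 10%. At 2-fold, only PTTG1 was lower in all 3 libraries, where 2.72% of all genes were, and 0 were higher, where 3.65% of all genes were. PTTG1 did not reach 2-fold in all 3 with scaling to total counts or after removal of the length and GC trends described below, and without replicate 3 the count of 2-fold lower genes was 3, where 5.97% of all genes were. At 1.5-fold, SPC25 lost its call with upper quartile or total count scaling, and CENPF with RLE or upper quartile scaling, with libraries thinned to the smallest total, or without replicate 3. Counting any size, 20 of 41 were lower in all 3 libraries (34.2% of all genes) and 9 were higher (30.1% of all genes). The median over the 41 genes of the mean log2 difference was -0.22, beside -0.02 over all genes tested. In the single libraries it was -0.08, -0.05 and -0.55 for replicates 1, 2 and 3, beside 0.03, 0.05 and -0.15 over all genes. Of all counts, the 42 genes together took 0.683% in the vector library and 0.693%, 0.665% and 0.684% in the labelled replicates 1, 2 and 3.

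**Figure D1:**
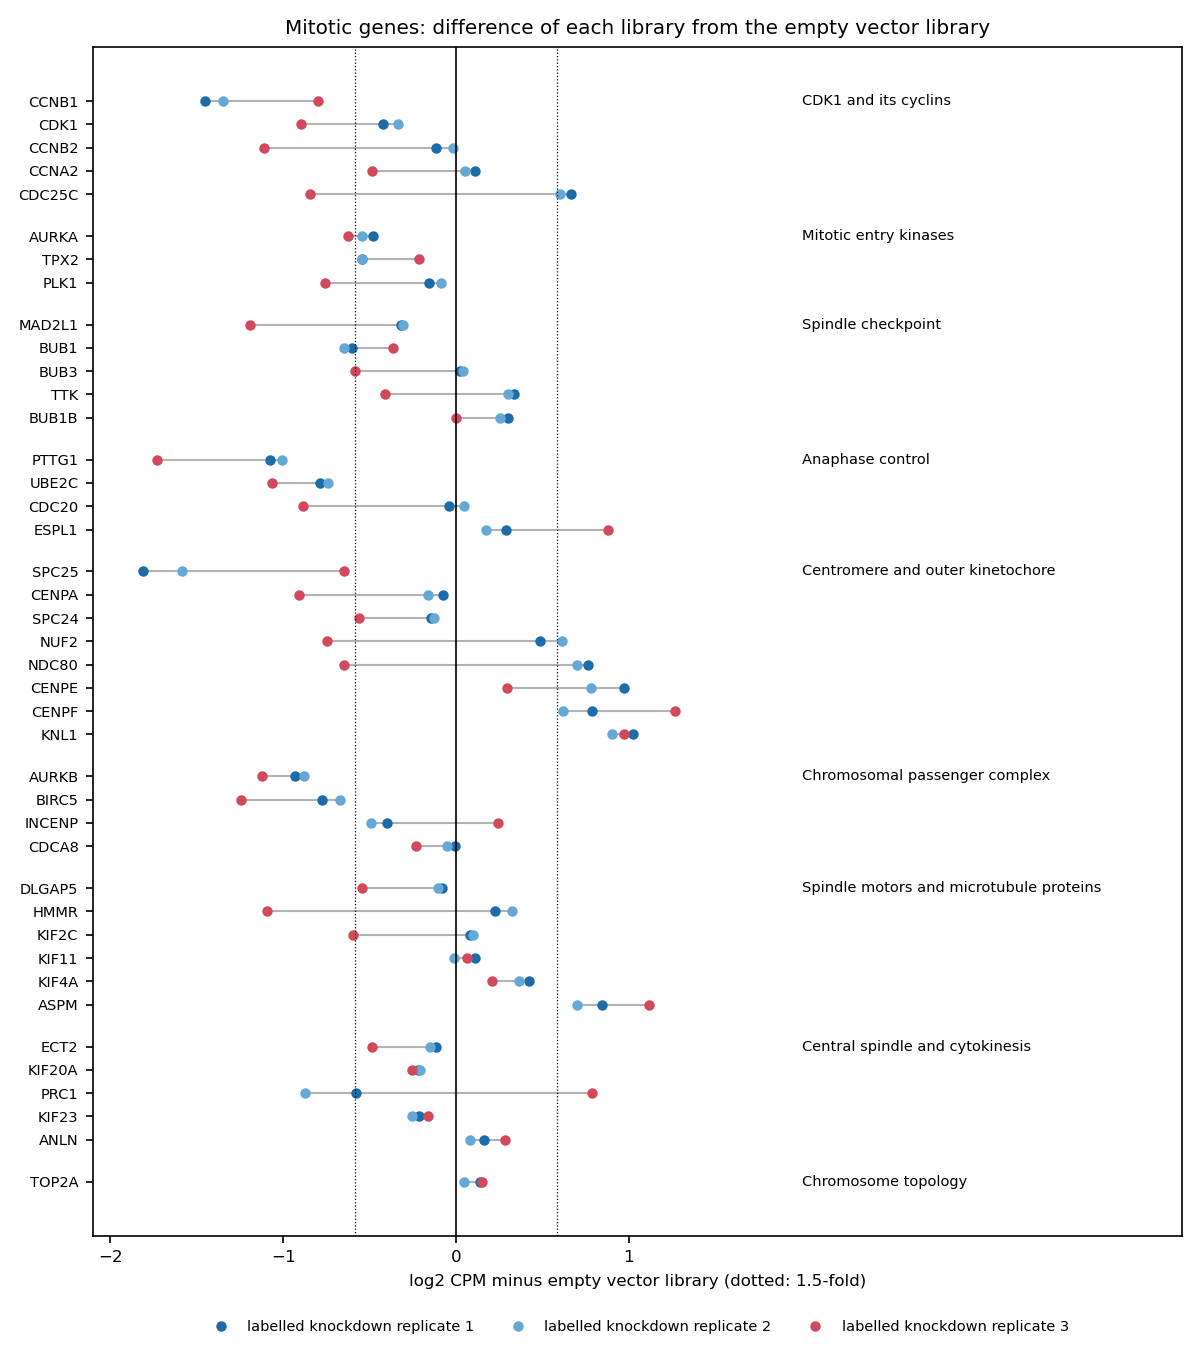
Log2 CPM minus that of the vector library for 41 mitotic genes, grouped by role, with 1 point for each labelled knockdown library and dotted lines at 1.5-fold. CCNB1, PTTG1, UBE2C, SPC25, AURKB and BIRC5 lie left of the dotted line in all 3 libraries, and CENPF, KNL1 and ASPM lie right of it.

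With all 4 libraries no mitotic gene passed a test. edgeR's quasi-likelihood test with Benjamini-Hochberg adjustment called 0% of 26029 genes, and so 0 of the 42. At an unadjusted p under 0.05 it counted 9 of the 42, of which 6 were lower (5.19% of all genes) and 3 were higher (6.42% of all genes). These were the genes past the 1.5-fold rule, with AURKA in place of SPC25. DESeq2 called 1.53% of the 16512 genes to which it gave an adjusted p, and 0 of the 41 mitotic genes among them. The test sets 1 empty vector library against 3 others whose own spread is wide because of replicate 3. Without replicate 3 the same edgeR test called 26 of the 42, 15 lower (21.2% of all genes) and 11 higher (23.5% of all genes), and the spread then came from replicates 1 and 2 alone. Levels and differences are therefore given for each gene, with no gene said to have changed.

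The start sites of these genes are shown because many of these genes share sequence elements there. The promoters, from 250 bases before the start site to 50 after, came from RefSeq on GRCh38.p14, and 35 of the 42 genes matched. The motifs searched on both strands were the CHR letters TTTGAA or TTCGAA, and the CCAAT box letters CCAAT. CHR letters stood in 26 of the 35 promoters (74.3%) and in 16.6% of all 27305 promoters of that length. CCAAT stood in 28 of the 35 (80.0%) and in 35.7% of all. Both stood in 22 of the 35 (62.9%) and in 6.58% of all. The 3 lower genes with the lowest mean differences, SPC25, PTTG1 and CCNB1, and the higher gene CENPF are printed 5′ to 3′ on the gene's own strand, with every match in capitals. KNL1 was not among the matched genes.
SPC25, chr2:168890381-168890680, minus strand: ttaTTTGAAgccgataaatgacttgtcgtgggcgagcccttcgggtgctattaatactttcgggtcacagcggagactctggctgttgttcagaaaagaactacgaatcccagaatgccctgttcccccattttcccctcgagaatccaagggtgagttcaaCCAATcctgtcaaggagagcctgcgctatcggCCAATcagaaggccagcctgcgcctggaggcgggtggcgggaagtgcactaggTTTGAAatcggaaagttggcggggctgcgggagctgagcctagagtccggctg
PTTG1, chr5:160421605-160421904, plus strand: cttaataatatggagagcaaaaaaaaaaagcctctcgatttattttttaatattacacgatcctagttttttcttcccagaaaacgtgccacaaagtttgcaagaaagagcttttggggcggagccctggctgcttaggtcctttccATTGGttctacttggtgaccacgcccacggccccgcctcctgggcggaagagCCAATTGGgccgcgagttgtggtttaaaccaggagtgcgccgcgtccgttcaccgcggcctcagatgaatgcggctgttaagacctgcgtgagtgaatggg
CCNB1, chr5:69166900-69167199, plus strand: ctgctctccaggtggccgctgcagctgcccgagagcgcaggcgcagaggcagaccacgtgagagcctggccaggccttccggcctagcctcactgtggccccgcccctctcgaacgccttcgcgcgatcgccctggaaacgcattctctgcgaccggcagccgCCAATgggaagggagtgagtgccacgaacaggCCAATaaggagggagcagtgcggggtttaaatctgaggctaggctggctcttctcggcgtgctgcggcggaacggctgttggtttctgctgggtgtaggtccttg
CENPF, chr1:214602945-214603244, plus strand: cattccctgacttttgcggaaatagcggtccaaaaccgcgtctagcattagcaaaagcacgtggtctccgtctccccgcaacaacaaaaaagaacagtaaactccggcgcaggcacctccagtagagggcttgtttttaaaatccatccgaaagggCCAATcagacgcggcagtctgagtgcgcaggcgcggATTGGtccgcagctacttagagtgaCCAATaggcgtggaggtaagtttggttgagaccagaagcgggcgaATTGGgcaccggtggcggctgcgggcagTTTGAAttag
SPC25 held CHR letters with their first base 3 bases before the start site and again 247 bases before it, and CCAAT at 88 and 56 bases before it. CCNB1 held CCAAT in almost the same places, at 87 and 55 bases before the start site, and no CHR letters of the searched forms. PTTG1 held 3 CCAAT boxes, 2 of them overlapping, and CENPF held 4 with CHR letters 40 bases after the start site. A match of letters is a description and says nothing of binding, and no match says only that these letters are not in this window. Of the 6 lower genes 4 had a promoter in the table, all with CCAAT and 1 with CHR letters, and of the 3 higher genes 2 had one, both with CCAAT and CHR letters. These promoters are too few to compare the lower with the higher genes.

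The start of mitosis is set by CDK1 and its cyclins. CCNB1 (ENSG00000134057.15; GRCh38 chromosome 5, 69167010 to 69178245, plus strand), the cyclin B that switches CDK1 on, had 309 CPM in the vector library, against 113, 121 and 178 CPM in labelled replicates 1, 2 and 3. All 3 labelled libraries were below the vector, and replicate 3 was the nearest to it. Its level was 0.365 times that of the vector in replicate 1 (95% counting interval 0.349 to 0.383), 0.393 times in replicate 2 (0.375 to 0.411) and 0.575 times in replicate 3 (0.547 to 0.604), a mean log2 difference of -1.20 ± 0.35 (SD, n = 3). CDK1, the kinase itself, had 117 CPM against 87.8, 93.1 and 62.9 CPM, a mean log2 difference of -0.55 ± 0.31 (SD, n = 3). CCNB2, the second B-type cyclin, did not follow CCNB1: it had 227 CPM against 209, 224 and 105 CPM, so that only replicate 3 stood well below the vector. CCNA2, the cyclin of S phase and G2, had 214 CPM against 231, 222 and 153 CPM. CDC25C, the phosphatase that removes inhibitory phosphates from CDK1, had the highest mean difference of these 5 genes and the widest spread, 0.14 ± 0.85 on the log2 scale (SD, n = 3), from 15.4 CPM against 24.35, 23.35 and 8.55 CPM. Replicates 1 and 2 were above the vector for CDC25C and replicate 3 was below it.

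The entry kinase genes AURKA and PLK1, and TPX2 with them, were lower in all 3 labelled libraries, none by 1.5-fold in each. AURKA, the centrosomal Aurora kinase, had 131 CPM in the vector library, against 94.2, 90.0 and 85.3 CPM in the labelled replicates, a mean log2 difference of -0.55 ± 0.07 (SD, n = 3). TPX2, which carries Aurora A to spindle microtubules and activates it, had a mean log2 difference of -0.44 ± 0.19 (SD, n = 3). PLK1, the Polo kinase of mitotic entry and spindle assembly, had 297 CPM against 266, 279 and 175 CPM, so most of its mean of -0.33 ± 0.37 (SD, n = 3) came from replicate 3.

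The spindle checkpoint genes were split. MAD2L1, which forms the inhibitor of CDC20 at unattached kinetochores, had 146 CPM in the vector library, against 117, 118 and 63.9 CPM in the labelled replicates, and BUB1, the kinase that recruits checkpoint proteins, had log2 differences with a mean of -0.54 ± 0.15 (SD, n = 3), from 164, 159.7 and 194 CPM in those replicates. Both were below the vector in every labelled library, MAD2L1 furthest in replicate 3 and BUB1 furthest in replicates 1 and 2. BUB1B, the BubR1 protein of the checkpoint complex, had 135.2 CPM against 166.7, 161.3 and 135.4 CPM, so replicate 3 equalled the vector to within counting error. TTK, the kinase that starts checkpoint signalling, had log2 differences of 0.33, 0.30 and -0.41 in replicates 1, 2 and 3. BUB3, the partner of BUB1 and BubR1, had log2 differences of 0.02, 0.04 and -0.59.

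Among the genes of anaphase, the substrate of the anaphase-promoting complex and its ubiquitin-conjugating enzyme were lower, and the protease was not. PTTG1 (ENSG00000164611.13; chromosome 5, 160421822 to 160428744, plus strand) encodes securin, the inhibitor of separase, and had 248.7 CPM in the vector library, against 118, 124 and 74.9 CPM in labelled replicates 1, 2 and 3. It was the only gene of the 41 at least 2-fold lower in all 3, at 0.473 times the vector (0.451 to 0.497), 0.497 times (0.473 to 0.522) and 0.301 times (0.281 to 0.323). Its near-identical copy PTTG2 had 0 counts in the vector library and 2, 0 and 0 counts in the others. UBE2C (ENSG00000175063.17; chromosome 20, 45812576 to 45816957, plus strand), the enzyme that hands ubiquitin to the complex, had 355 CPM against 206, 212 and 169.9 CPM. All 3 labelled libraries lay within a narrow range below the vector, for a mean log2 difference of -0.87 ± 0.17 (SD, n = 3). CDC20, the activator of the complex, had 386 CPM against 375, 399 and 209 CPM, so only replicate 3 stood apart from the vector. ESPL1, which encodes separase, had 48.9 CPM against 59.7, 55.2 and 89.8 CPM, higher in all 3 and most in replicate 3.

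The kinetochore genes held both the lowest and the highest mean difference of all 41 genes. SPC25 (ENSG00000152253.9; chromosome 2, 168834132 to 168913371, minus strand), a subunit of the NDC80 complex that anchors it to the inner kinetochore, had 19.4 CPM in the vector library, against 5.49, 6.43 and 12.4 CPM in labelled replicates 1, 2 and 3. Its level was 0.284 times the vector in replicate 1 (0.231 to 0.347), 0.332 times in replicate 2 (0.273 to 0.404) and 0.638 times in replicate 3 (0.524 to 0.775), a mean log2 difference of -1.35 ± 0.62 (SD, n = 3). The other subunits of the same complex did not share this pattern. NDC80, the microtubule-binding subunit, had 76.8 CPM against 131, 125 and 49.0 CPM, and its partner NUF2 had 70.9 CPM against 99.2, 108 and 42.2 CPM. For both, replicates 1 and 2 were above the vector and replicate 3 was below it. SPC24, the partner of SPC25, had 58.9 CPM against 53.3, 53.9 and 39.9 CPM.

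Levels of different genes can be set side by side only per transcript length, here as TPM, counts per kilobase of the longest annotated transcript scaled to the same sum in each library. In the vector library the complex stood at 75.8 TPM for NDC80, 77.2 for NUF2, 54.5 for SPC24 and 30.7 for SPC25. In labelled replicate 1 the values were 161.5, 135, 61.9 and 10.9 TPM, and in replicate 2 they were 142, 136, 57.4 and 11.7 TPM. In replicate 3 they were 75.1, 71.5, 57.5 and 30.4 TPM. For NDC80 and SPC25 replicate 3 was thus near the vector in TPM. In CPM it was below the vector for both, at 49.0 against 76.8 CPM and 12.4 against 19.4 CPM. TPM and CPM are scaled differently, so TPM is used here to compare genes within a library, not libraries. Within each library SPC25 stood lowest of the 4, and its gap to NDC80 was widest in replicates 1 and 2. The order of the others depended on the length used. Over the joined exons of each gene the vector library had 59.0 TPM for NDC80, 58.3 for NUF2, 57.35 for SPC24 and 29.1 for SPC25. SPC25 stayed lowest in each library with that length. NUF2 overlaps RGS5 on the other strand, a gene with 157 CPM in the vector library, against 526, 547 and 479 CPM in the labelled replicates, and without a stated strand setting the reads of such a pair cannot be told apart. Over all 41 genes the empty vector levels per length ran from 1.18 TPM for PRC1 and 14.9 TPM for CENPE to 833 TPM for UBE2C. The counts of PRC1 are uncertain. PTTG1 at 498, CDC20 at 465 and CCNB1 at 305 TPM came next below UBE2C. Over joined exons UBE2C had 764 TPM, and CDC20 at 524 TPM stood above PTTG1 at 342 TPM.

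At the other end, KNL1 (ENSG00000137812.21; chromosome 15, 40594020 to 40664342, plus strand), the scaffold that gathers checkpoint proteins at the outer kinetochore, had 75.7 CPM in the vector library, against 154, 142 and 149 CPM in labelled replicates 1, 2 and 3. The 3 labelled libraries agreed within a spread of 0.06 (SD, n = 3) around a mean log2 difference of 0.97, the highest of the 41 genes. CENPF (ENSG00000117724.14; chromosome 1, 214603195 to 214664588, plus strand), a large coiled-coil protein of the outer kinetochore, had 352 CPM against 607, 542 and 846 CPM, with ratios to the vector of 1.72 (1.67 to 1.78), 1.54 (1.49 to 1.59) and 2.40 (2.32 to 2.49). CENPE, the kinesin that carries chromosomes to the spindle equator, had 60.0 CPM against 118, 103 and 73.5 CPM, above the vector in all 3 libraries. CENPA, the histone variant that marks the centromere, had 33.2 CPM against 31.5, 29.7 and 17.7 CPM. It shares its strand and part of its span with SLC35F6, which had 56.7 CPM against 109 CPM in replicates 1 and 2 (109.3 and 108.9) and 104 CPM in replicate 3, so its counts are uncertain.

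In the chromosomal passenger complex, which corrects faulty attachments and guides cytokinesis, the kinase and survivin were lower and the scaffold was not. AURKB (ENSG00000178999.13; chromosome 17, 8204733 to 8210600, minus strand), the catalytic subunit, had 118 CPM in the vector library, against 62.1, 64.4 and 54.4 CPM in the labelled replicates. The labelled libraries were close together, at -0.98 ± 0.13 (SD, n = 3) on the log2 scale. BIRC5 (ENSG00000089685.15; chromosome 17, 78214186 to 78225636, plus strand), survivin, which binds the complex to centromeres, had 106 CPM against 62.1, 66.8 and 44.9 CPM, a mean log2 difference of -0.90 ± 0.30 (SD, n = 3). INCENP, the scaffold, had 119 CPM against 89.8, 84.4 and 140.1 CPM, with replicate 3 on the other side of the vector. CDCA8, or borealin, had the highest mean difference of the 4 genes, -0.10 ± 0.12 (SD, n = 3), from 139.6 CPM against 139.0, 135 and 119 CPM, and this turned to 0.11 after removal of the length and GC trends.

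**Figure D2:**
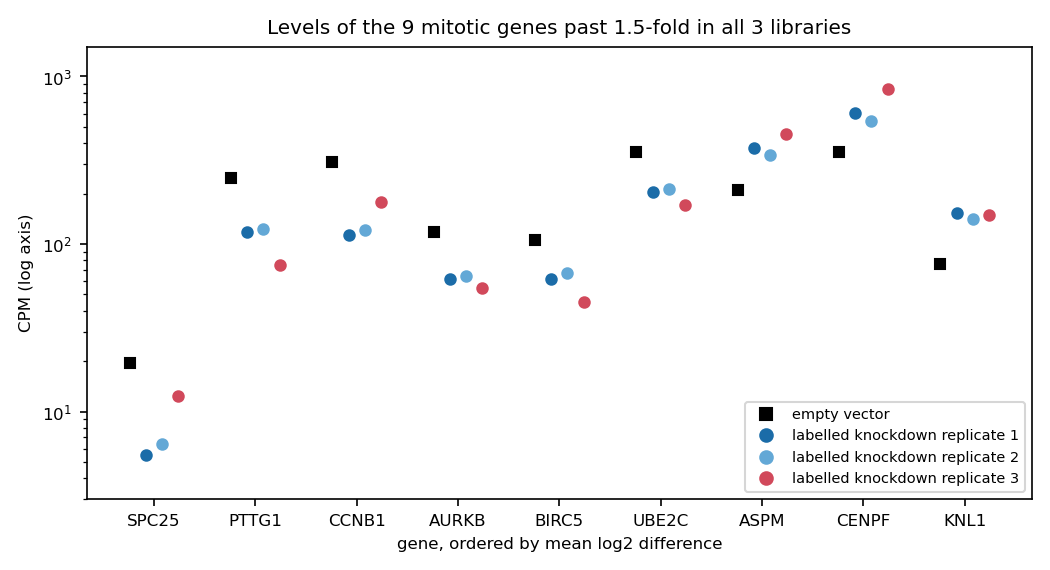
CPM on a log axis of the 9 mitotic genes at least 1.5-fold from the vector library (squares) in each of the 3 labelled knockdown libraries (circles). SPC25, PTTG1, CCNB1, AURKB, BIRC5 and UBE2C lie below their squares in every library, and ASPM, CENPF and KNL1 lie above, with KNL1 at 142 to 154 CPM against 75.7 CPM.

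Of the spindle and cytokinesis genes, 1 was past 1.5-fold in all 3 libraries. ASPM (ENSG00000066279.19; chromosome 1, 197084128 to 197146694, minus strand), a spindle pole protein known for its part in neural progenitor division, had 209.7 CPM in the vector library, against 376, 341 and 455 CPM in the labelled replicates, a mean log2 difference of 0.89 ± 0.21 (SD, n = 3). ASPM was that gene, out of 11 tested. The kinesins KIF11, which pushes spindle poles apart, KIF2C, which removes tubulin at centromeres, and KIF4A, which acts on chromosome arms and the midzone, had mean log2 differences of 0.05 ± 0.06, -0.14 ± 0.40 and 0.33 ± 0.11 (SD, n = 3). DLGAP5, which stabilises kinetochore fibres, was the lowest of the spindle group at -0.24 ± 0.26 (SD, n = 3), from 104.5 CPM against 98.6, 97.3 and 71.6 CPM. HMMR, a spindle-associated hyaluronan receptor, had 197 CPM against 229.7, 246 and 92.1 CPM.

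KIF20A and KIF23, kinesins of the central spindle, were among the steadiest genes, with mean log2 differences of -0.23 ± 0.02 and -0.21 ± 0.05 (SD, n = 3). ECT2, the exchange factor that turns on RhoA at the division plane, had the lowest mean of the cytokinesis genes, with 360.4 CPM in the vector library, against 332, 325 and 258 CPM in the labelled replicates. ANLN, the anillin of the contractile ring, had the highest, with 342 CPM against 382, 362 and 416 CPM. TOP2A, the topoisomerase that untangles sister chromatids, had 426 CPM against 469.6, 440.3 and 472 CPM, a mean log2 difference of 0.11 ± 0.06 (SD, n = 3) that was -0.18 after removal of the length and GC trends. PRC1, the microtubule bundler of the midzone, had only 54 counts in the vector library, or 2.25 CPM against 1.49, 1.21 and 3.91 CPM, and shares its strand with a protein-coding annotation that had 100 counts there. NUSAP1, a microtubule-bundling protein, had 8 counts in the vector library and did not pass the minimum. Both PRC1 and NUSAP1 lie under a second protein-coding gene model on the same strand, so a low count may not be a low level. Neither is read on its own here, though PRC1 stays in the counts and medians over the genes tested.

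The differences among the 41 genes went with transcript length. The 6 lower genes have longest annotated transcripts of 914 to 2711 nt, and the 3 higher genes 9573 to 10887 nt. Across the 41 genes the mean log2 difference had a Spearman correlation of 0.633 with transcript length and of -0.326 with GC content, given as a description, since all points share the same 4 libraries. Over 15485 genes with a length the corresponding values were 0.422 and -0.190. Of the 20 genes shorter than the median length of 3201 nt, 13 were lower and 0 higher in all 3 libraries. Of the 21 others, 7 were lower and 9 higher. Among all genes, 3384 of 6896 shorter ones were lower and 995 higher, and 1947 of 8589 longer ones were lower and 3664 higher.

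Smooth trends of the difference on length and GC content were therefore removed over all genes. PTTG1 then remained the only one of the 9 genes past 1.5-fold in all 3 libraries, at a mean log2 difference of -0.91, where 7.47% of all genes were lower and 6.64% higher. CCNB1 was at -1.28, -1.24 and -0.46 in replicates 1, 2 and 3 after the removal, SPC25 at -1.54, -1.41 and -0.04, and BIRC5 at -0.60, -0.52 and -1.06, each below the vector in every library. UBE2C moved to a mean of -0.52 and AURKB to -0.55. The 3 long genes lost most of their difference: KNL1 moved from 0.97 to 0.32, CENPF from 0.89 to 0.19 and ASPM from 0.89 to 0.17. Before the removal CENPF and ASPM already lay within the middle 50% of all genes of similar length, and KNL1 near its upper edge. That edge was 0.92 in the length bin at 8909 nt and 1.07 in the bin at 10458 nt. MAD2L1 moved the other way, from -0.61 to -0.86, and BUB3 from -0.17 to -0.72. Both are assigned long annotated transcripts, of 5468 and 7828 nt. The median over the 41 genes was -0.17 after the removal, beside -0.06 over all genes.

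**Figure D3:**
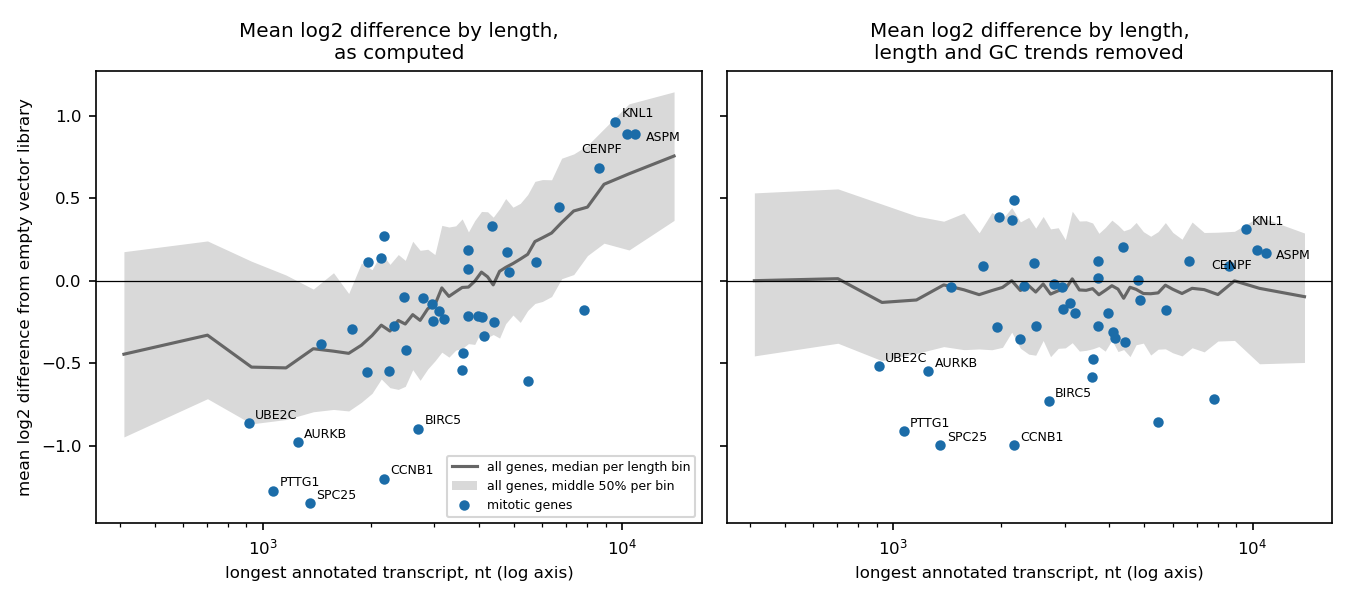
Mean log2 difference of the 3 labelled knockdown libraries from the vector library against the longest annotated transcript (log axis), before (left) and after (right) removal of length and GC trends; the line and band are the median and middle 50% of all genes in 40 length bins. On the left the mitotic genes climb with length along with all genes. CENPF, KNL1 and ASPM lie inside the band on the left as well as on the right, KNL1 near its upper edge. On the right PTTG1, CCNB1, SPC25, BIRC5, AURKB and UBE2C stay below it. Other mitotic genes, such as MAD2L1 and BUB3, also lie below the band there.

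Some of the 41 genes set replicate 3 apart from replicates 1 and 2. NDC80, NUF2, CDC25C and HMMR were at least 2-fold lower in replicate 3 than in both other labelled libraries, 4 of 41 genes where 13.1% of all genes were. PRC1, at low counts, was the 1 gene at least 2-fold higher, where 6.2% of all genes were. The share of mitotic genes 2-fold lower in replicate 3 was therefore near the background. In NDC80 the log2 differences from the vector were 0.77, 0.70 and -0.65 in replicates 1, 2 and 3, in NUF2 0.48, 0.61 and -0.75, in CDC25C 0.66, 0.60 and -0.84 and in HMMR 0.22, 0.32 and -1.10. For these 4 genes the labelled libraries lie on both sides of the vector, and a mean over them describes no library. SPC25 and CCNB1 differed in the opposite sense, with replicate 3 nearer to the vector than replicates 1 and 2.

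**Figure D4:**
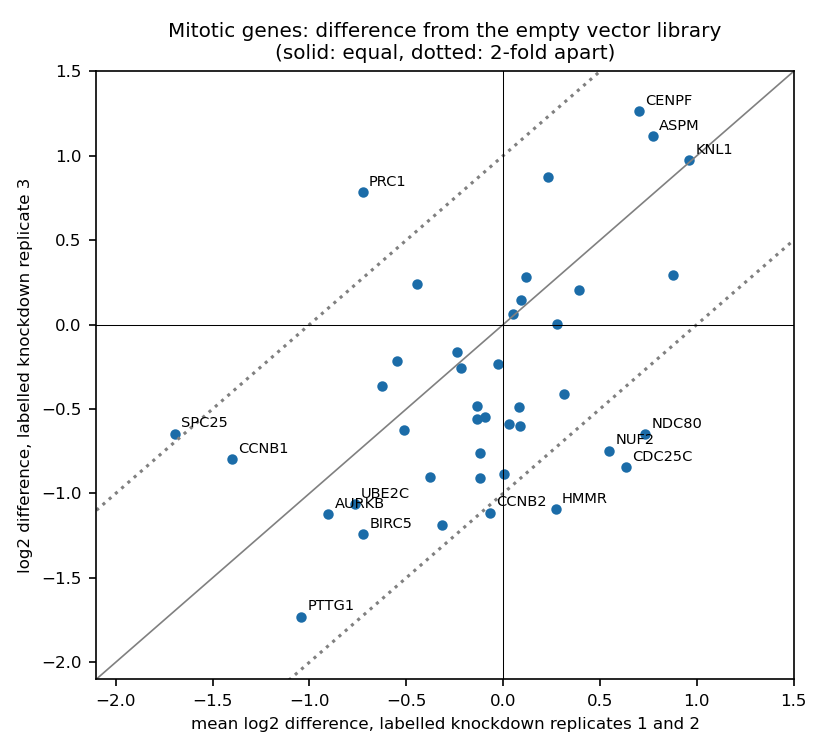
Log2 difference from the vector library of 41 mitotic genes in labelled replicate 3 (vertical axis) against the mean of replicates 1 and 2 (horizontal axis), with a solid line of equality and dotted lines 2-fold from it. NDC80, NUF2, CDC25C and HMMR lie right of 0 and below it, below the lower dotted line.

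Other cell cycle genes were counted in lists, each beside the background shares given above for the same rule. The counts are before removal of the length and GC trends unless stated. After that removal the 1.5-fold shares of all genes were 7.47% lower and 6.64% higher. Of 21 tested regulators of mitotic transcription, 1 was at least 1.5-fold lower, E2F1, and 1 higher, LIN54, the DNA-binding subunit of DREAM. LIN54 had 18.0 CPM in the vector library, against 49.0, 45.2 and 34.1 CPM in the labelled replicates, and E2F1 had 64.7 CPM against 35.5, 38.2 and 32.1 CPM. The list's median was -0.02. With the trends removed, 0 of these regulators were past 1.5-fold in either direction. In the inner kinetochore network 2 of 15 genes were 1.5-fold lower and 0 higher, the short CENPX and CENPW, with a median of -0.17. CENPX had 21.9 CPM against 6.94, 6.97 and 9.09 CPM, lower than the vector by more than 2-fold in every library. The MIS12 and RZZ complexes had 0 of 9 genes past 1.5-fold in either direction and a median of -0.14.

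Of 17 anaphase-promoting complex genes, 3 were 1.5-fold lower and 0 higher, with a median of -0.43 that was -0.42 after removal of the length and GC trends. The catalytic subunit ANAPC11 had 35.5 CPM in the vector library, against 15.4, 16.1 and 11.6 CPM in the labelled replicates. Condensin and cohesin genes gave 0 lower and 1 higher of 20, STAG1, and a median of -0.04. Centrosome genes gave 1 lower of 14, TUBG1, the gamma-tubulin of microtubule nucleation, and 2 higher, CDK5RAP2 and PCNT, which anchor it. PCNT had 29.1 CPM against 54.3, 52.2 and 87.3 CPM and moved from a mean log2 difference of 1.11 to 0.47 when the trends were removed. Among the other G2/M kinases and exit genes 2 of 16 were lower and 0 higher, both of them small CDK subunits: CKS2 had 119 CPM against 52.6, 59.5 and 52.6 CPM, and CKS1B had 156 CPM against 78.4, 85.0 and 66.6 CPM. Among the other mitotic kinesins 1 of 7 was lower, KIFC1, and 0 were higher. With the trends removed, 2 anaphase-promoting complex genes were 1.5-fold lower. Condensin and cohesin then had 1 lower, and the other G2/M kinases and exit genes 1. Centrosome genes and kinesins then had 0 lower, and each of these lists had 0 higher.

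Genes of S phase were counted in the same way, and their difference from the mitotic genes was not tested. Of 22 DNA replication genes 3 were 1.5-fold lower and 0 higher, 20 were lower by any size in all 3 libraries and 0 higher, and the median was -0.54, or -0.46 after removal of the trends. By library the median was -0.62, -0.55 and -0.43 in replicates 1, 2 and 3, below that of the mitotic genes in replicates 1 and 2 and above it in replicate 3. PCNA, the sliding clamp, had 330.3 CPM in the vector library, against 105, 109.5 and 167 CPM in the labelled replicates. Of 12 G1/S genes 2 were lower, CCNE1 and GMNN, and 1 higher, CDK6, with a median of -0.30. With the trends removed, 1 replication gene was 1.5-fold lower and 0 were higher. Of the G1/S genes 2 were then lower, CCNE1 but not GMNN among them, and 0 were higher. Of 19 CDK inhibitors and p53 targets 1 was lower, CDKN2A, and 4 were higher, with medians of 0.75, 0.65 and 0.05 in replicates 1, 2 and 3. By any size 11 were higher in all 3 libraries (30.1% of all genes) and 2 lower (34.2% of all genes). With the trends removed, 6 were 1.5-fold higher and 1 lower. TP53INP1, the highest of the list, had 5.62 CPM against 13.9, 15.1 and 17.6 CPM, and CDKN2A, the lowest, had 17.75 CPM against 6.71, 6.78 and 3.78 CPM. CDKN1A, the p21 inhibitor through which p53 holds back mitotic genes, had 43.0 CPM against 50.9, 50.9 and 27.1 CPM, above the vector in replicates 1 and 2 and below it in replicate 3.

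**Figure D5:**
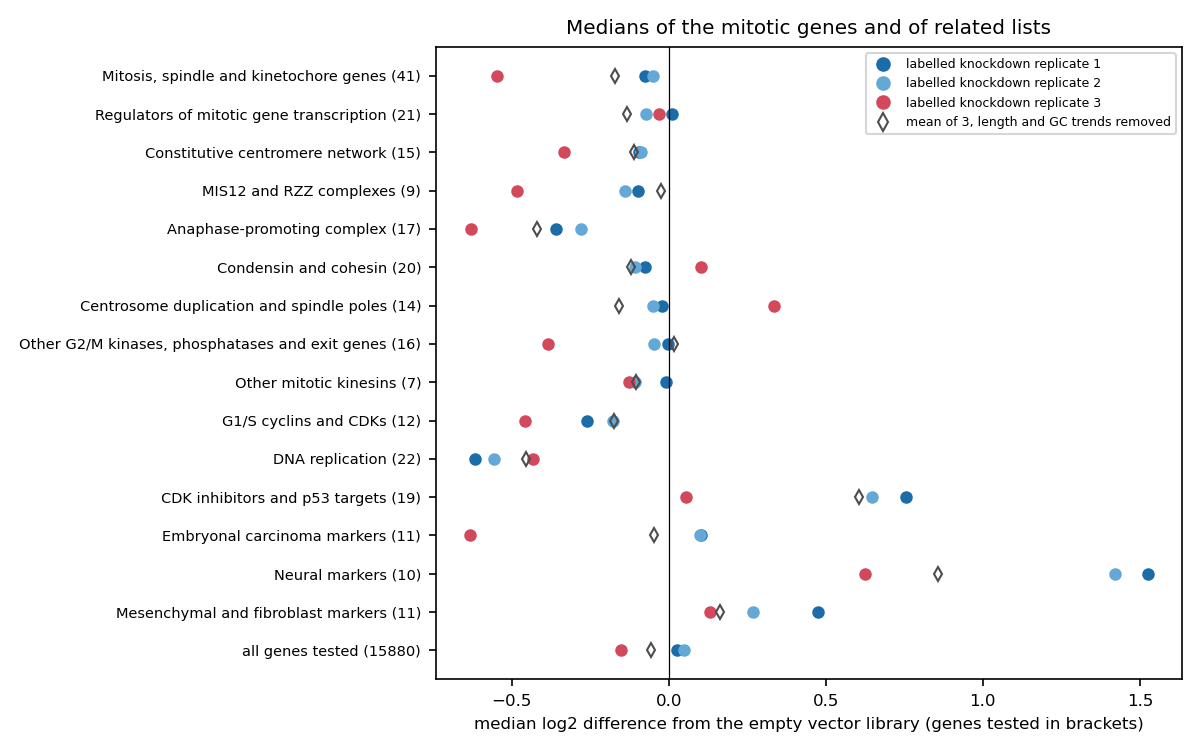
Median log2 difference from the vector library of the mitotic genes, of related lists and of all genes tested, 1 point for each labelled knockdown library, with the median of the mean of the 3 after removal of length and GC trends as diamonds. The mitotic genes sit at -0.08, -0.05 and -0.55, and the DNA replication list lies below -0.4 in all 3 libraries.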

How the data were processed

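RNA-seq libraries of 4 samples were used, 1 empty vector and 3 labelled HYDIN2 knockdown, made from ribosome-depleted total RNA with strand-specific second-strand marking, per the labels' protocols. The values are raw counts per gene deposited by the authors, 1 table per library; the submitters' processing notes name STAR 2.7.11b, featureCounts 2.0.6, DESeq2, hg38 and GRCh38. The annotation release and the strand setting are not given in the sources used here. Between 65.2% and 68% of nonzero counts were even, so intervals (95%, exact, counting error only) were computed on counts divided by 2.

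Counts were scaled with TMM factors (edgeR 4.0.16, R 4.3.3) of 0.953, 0.990, 0.969 and 1.09, taken over genes kept by filterByExpr. Log2 CPM used a prior count of 2, and genes entered at a mean of the group mean CPMs of at least 1. With 1 empty vector library, a rule of size in each labelled library replaced a test. edgeR's quasi-likelihood test (Benjamini-Hochberg, 0.05) gave numbers of calls. Trends were removed by lowess (span 0.3) on the longest GENCODE 29 transcript and its GC content. Matched by identifier, 58269 of 62696 genes were in GENCODE 29. Scripts were tested on simulated data. Values in every library are given for genes past 1.5-fold in all 3, for the lowest and highest of each role, and for CDK1, CCNB1, PLK1, AURKB, MAD2L1, NDC80 and TOP2A; others named are additions. In each other list, the 2 lowest and 2 highest genes could be named. CDKN1A and the printing of CENPF in place of KNL1 were chosen after values were seen. The genes and lists were chosen with earlier results of these data known.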

Additional observations from a re-analysis of the deposited data

How the results depend on the processing

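No paired analysis was possible because only 1 library carries the vector, without a number of its own. The alternatives were RLE, upper quartile and total count scaling, prior counts of 0.5 and 5, a mean CPM of 0.1 or 5, protein-coding genes alone, thinning to the smallest total, removal of length and GC trends and leaving out each labelled library. The number of genes 2-fold lower was 1, and 0 with total count scaling or with trends removed; leaving out single libraries gave 1 to 3, the 3 being without replicate 3 beside 5.97% of all genes. With trends removed, 1 gene was 1.5-fold lower in place of 6 and 0 were higher in place of 3, and the cause was not tested. Upper quartile and total count scaling gave 5 lower genes, without SPC25, and RLE scaling, upper quartile scaling and thinning gave 2 higher genes, without CENPF. Leaving out single libraries gave 6 to 9 lower and 3 to 4 higher genes; the 9 and the 4 came without replicate 3, where 16.7% of all genes were lower and 19.1% higher, and the 4 did not include CENPF. The median over the 41 genes stayed below 0 under each alternative run. edgeR's test called 0 of the 42 genes with RLE scaling, with no filter, and with voom in limma 3.58.1; leaving out single libraries gave 0 to 26, with 26 without replicate 3. Over all genes it called 0, and 17, 39 and 11177 without replicates 1, 2 and 3, while DESeq2 1.42.0 called 253. CDC25C lost its direction without replicate 1 or 2, and CDCA8 and TOP2A with trends removed. With the empty vector at 1 library, no alternative measures its spread, and at 54 and 8 counts PRC1 and NUSAP1 were too shallow for a statement.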
